A study of Mus musculus with 40 samples.

Results

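The interaction of Flt3-ITD with NHD13 was measured in mouse hematopoietic progenitors at P14 (14 days of age). It is the effect of Flt3-ITD in the NHD13 background minus the effect of Flt3-ITD in the wild-type background, on the log2 scale. A value of 0 means that the single effects add up. A positive value means that the combined genotype lies above the sum of the single effects, and a negative value that it lies below. The contrast rests on 16 of the 40 samples of the series, 4 libraries in each of 4 groups. The groups are FLT3-ITD/NUP98-HOXD13 (here Flt3-ITD/NHD13), NUP98-HOXD13 (NHD13), FLT3-ITD (Flt3-ITD) and wild type, all of the same age. The labels name no further allele or agent in any of them and give the source as progenitor or multipotent progenitor cells. The promoter behind the fusion gene and the zygosity of either mutation are not given in the sources used here. All 24 P14 libraries in 6 groups were fitted together, so libraries of Runx1-heterozygous progenitors, with and without Flt3-ITD, share in the estimate of spread. Values from those groups and from libraries at birth (P0) are given near the end. Whether the 4 libraries of each group came from different animals is not stated. By Xist and Y-linked genes, Flt3-ITD/NHD13, NHD13 and wild type each held libraries of both sexes, so none of these groups came from a single animal. P-values here cover the spread between libraries, of which an unknown part may be technical.

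FLT3 is a receptor tyrosine kinase of early blood progenitors, and its internal tandem duplication (ITD) leaves the kinase active without ligand and engages STAT5 and the MAPK pathway. NUP98-HOXD13 joins part of a nuclear pore protein to a homeodomain and keeps HOX cluster genes and their cofactors expressed. Both lesions occur in acute myeloid leukemia, and signalling mutations and transcription factor fusions are often found in the same leukemia. A pair of mutations can act on a gene independently, so that the effects add. They can also fall short of their sum, oppose each other, or move a gene that neither moves alone.

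RNA was sequenced to 13.7 to 27.3 M counts per library (median 20.2 over the 16 libraries), and levels are given as CPM, counts scaled to library size. Progenitor genes were present in all 4 groups, with mean levels of Kit, the stem cell factor receptor, of 766 CPM in Flt3-ITD/NHD13, 1031 CPM in NHD13, 808 CPM in Flt3-ITD and 1033 CPM in wild type. Hoxd13, part of which the fusion transcript carries, had 216 summed counts in Flt3-ITD/NHD13 and 342 in NHD13, against 0 in Flt3-ITD and 1 in wild type. Flt3 itself lay at 616, 634, 693 and 658 CPM in the Flt3-ITD/NHD13 libraries and at 863, 1087, 1066 and 1055 CPM in the NHD13 libraries. It lay at 702, 777, 701 and 752 CPM in the Flt3-ITD libraries and at 1509, 1363, 1430 and 1185 CPM in the wild-type libraries. Every mutant library was below every wild-type library, and the interaction of Flt3 was 0.26 ± 0.12 (adjusted p = 0.528). The interaction of Nup98 was −0.19 ± 0.16 (adjusted p = 0.83). Gene counts do not tell the duplicated from the normal Flt3 allele. Sex, read from Xist and Y-linked genes, was not balanced: Flt3-ITD/NHD13 library 2, NHD13 library 1 and wild-type libraries 1, 3 and 4 were female, and no Flt3-ITD library was.

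Most genes that passed for a mutation in one background had an effect of the same direction in the other background. Flt3-ITD raised 382 genes (2.65% of those tested) and lowered 516 (3.58%) in the NHD13 background, against 553 raised (3.84%) and 685 lowered (4.76%) in the wild-type background. These contrasts share no library. The raised sets held 181 genes in common, 47.4% of the set from the NHD13 background and 32.7% of the set from the wild-type background. The lowered sets held 232 in common, 45% and 33.9% of those sets. Of the 553 genes raised in the wild-type background, 503 (91%) had a positive effect in the NHD13 background, where the median was 0.28 against 0.55 where they were chosen. Of the 685 lowered there, 607 (88.6%) had a negative effect in the NHD13 background, with medians of −0.34 and −0.70. Genes chosen in the NHD13 background instead shrank in the wild-type background in the same way, with medians of 0.79 where chosen and 0.45 where shown for 382 raised genes, and of −0.84 and −0.44 for 516 lowered genes. The smaller median outside the background of choice thus appeared whichever background was used to choose.

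NHD13 changed more genes than Flt3-ITD in either background. It raised 914 genes (6.35%) and lowered 1034 (7.18%) in the Flt3-ITD background, against 1025 (7.12%) and 1260 (8.75%) in the wild-type background. The raised sets shared 585 genes, 64% of the first and 57.1% of the second, and the lowered sets shared 694, 67.1% and 55.1%. Of the 1025 genes raised in the wild-type background 962 (93.9%) had a positive effect in the Flt3-ITD background, and of the 1260 lowered 1190 (94.4%) had a negative one. Their medians were 0.66 in the Flt3-ITD background and 0.89 where chosen for the raised genes, and −0.54 and −0.82 for the lowered ones. Genes chosen in the Flt3-ITD background had medians of 0.99 there and 0.70 in the wild-type background for 914 raised, and −0.89 and −0.73 for 1034 lowered. Over 10028 genes whose mean log2 CPM was 2 or more, the correlation of the NHD13 effects in the 2 backgrounds was r = 0.77 and rho = 0.56, and that of the Flt3-ITD effects was r = 0.56 and rho = 0.48. These describe genes that share libraries and depth within each effect and carry no test.

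**Figure D1:**
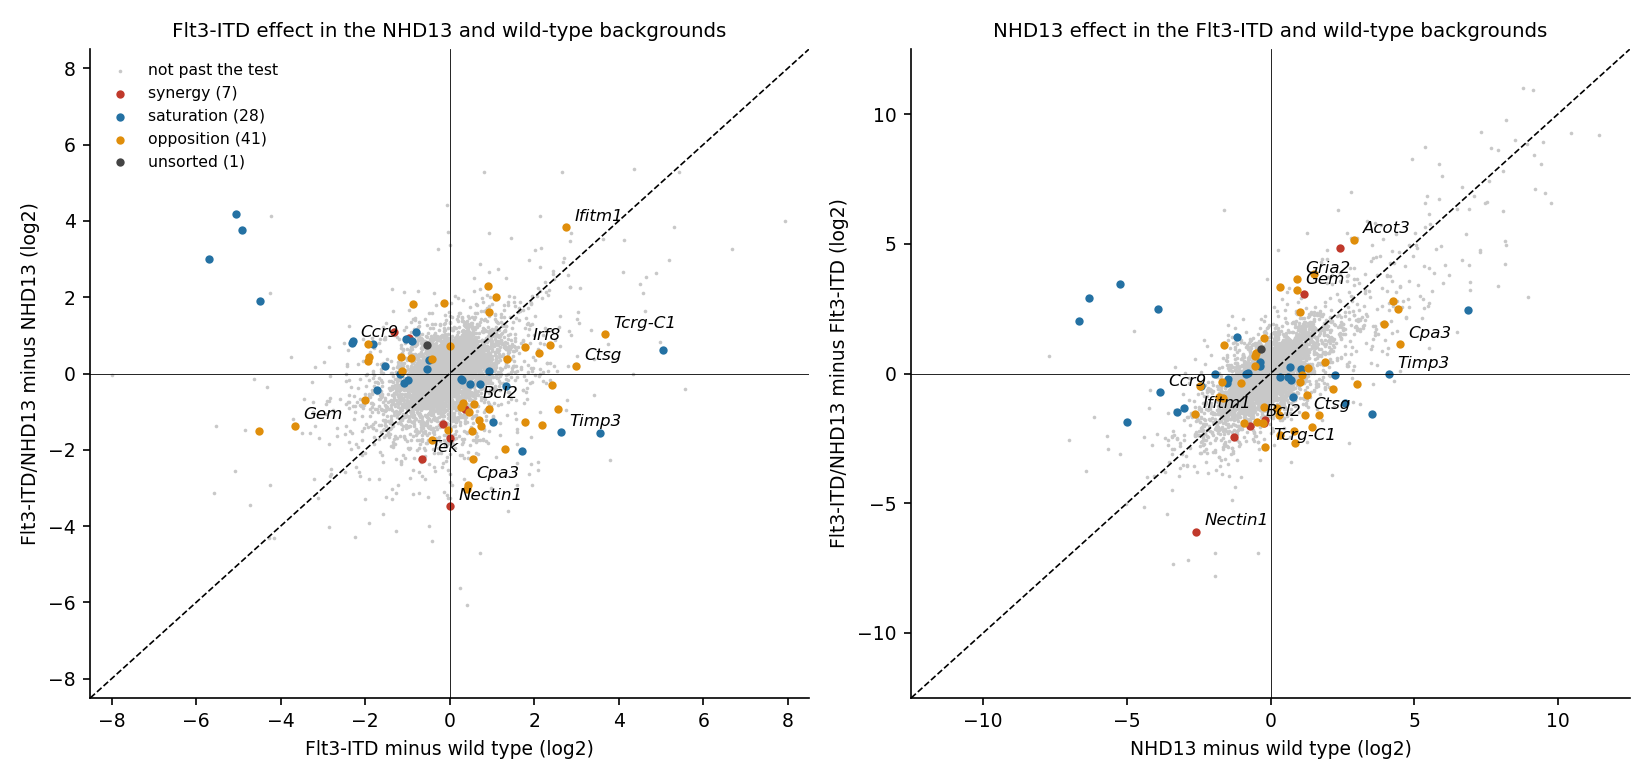
Left, log2 effect of Flt3-ITD in the NHD13 background (vertical) against that in the wild-type background (horizontal) for every tested gene; right, log2 effect of NHD13 in the Flt3-ITD background against that in the wild-type background. Grey points are genes not past the interaction test, coloured points are the 77 that are, by class, and the dashed line marks equal effects. Most grey points follow the diagonal, and saturation genes such as Ccr9 and Timp3 lie near 0 or past it on the vertical axis while being far from 0 on the horizontal one.

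The interaction passed the test (edgeR quasi-likelihood, Benjamini-Hochberg adjusted p under 0.05 over 14394 genes) for 77 genes, 0.535% of those tested. It was positive in 37 (0.257%) and negative in 40 (0.278%). Without adjustment 1289 genes (8.96%) had p under 0.05, 737 positive and 552 negative. The median standard error of an interaction was 0.22 over all tested genes and 0.17 over genes whose mean log2 CPM was 2 or more, where the 95% interval had a median half-width of 0.36. In simulated data of this design 26% of 1.5-fold, 82% of 2-fold and 98% of 4-fold interactions were recovered (50 genes of each size among 14214). The changed genes were drawn only from those whose mean log2 CPM was 2 or more. At that level departures of 1.5-fold were mostly missed with 4 libraries a group, and recovery below it was not measured. The number of calls also leaned on single libraries: it fell to 40 without wild-type library 3, to 41 without Flt3-ITD/NHD13 library 4 or NHD13 library 4, to 46 without Flt3-ITD/NHD13 library 3, to 49 without Flt3-ITD library 4 and to 50 without Flt3-ITD library 3, and was 103 without wild-type library 1. Of the 77 genes, 33 passed in all 16 fits that left out 1 library.

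The 77 genes were sorted by their single effects against wild type, each counted as present at an adjusted p under 0.05. Opposition held 41 genes (53.2%): the single effects had opposite signs, or the only single effect was countered by the interaction. Saturation held 28 (36.4%): both single effects had the same sign and the combined genotype fell short of their sum. Synergy held 7 (9.09%): the interaction went further in the direction of the single effect. This class also took genes with neither single effect present, whose combined genotype passed against wild type in the direction of the interaction. Rasal3, a Ras GTPase-activating protein, fitted none of these classes (1.27 ± 0.28, adjusted p = 0.0274, passing in 6 of the 16 fits and not with a term for sex). The sort is a description with no test, since single effects and interaction share the wild-type and single-mutant libraries, and an error there moves them in opposite directions. The median absolute interaction was 1.69 for synergy, 1.82 for saturation and 1.86 for opposition. In linear CPM the difference of differences had the other sign for 1 saturation and 3 opposition genes. The genes just inside the threshold were 4732463B04Rik, Nedd4 and Mfsd2b (adjusted p = 0.0495 each), and those just outside were Cdk6 (−0.80, adjusted p = 0.0509), Prg3 (6.38, 0.0513) and Ltbp1 (−3.28, 0.0514).

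**Figure D2:**
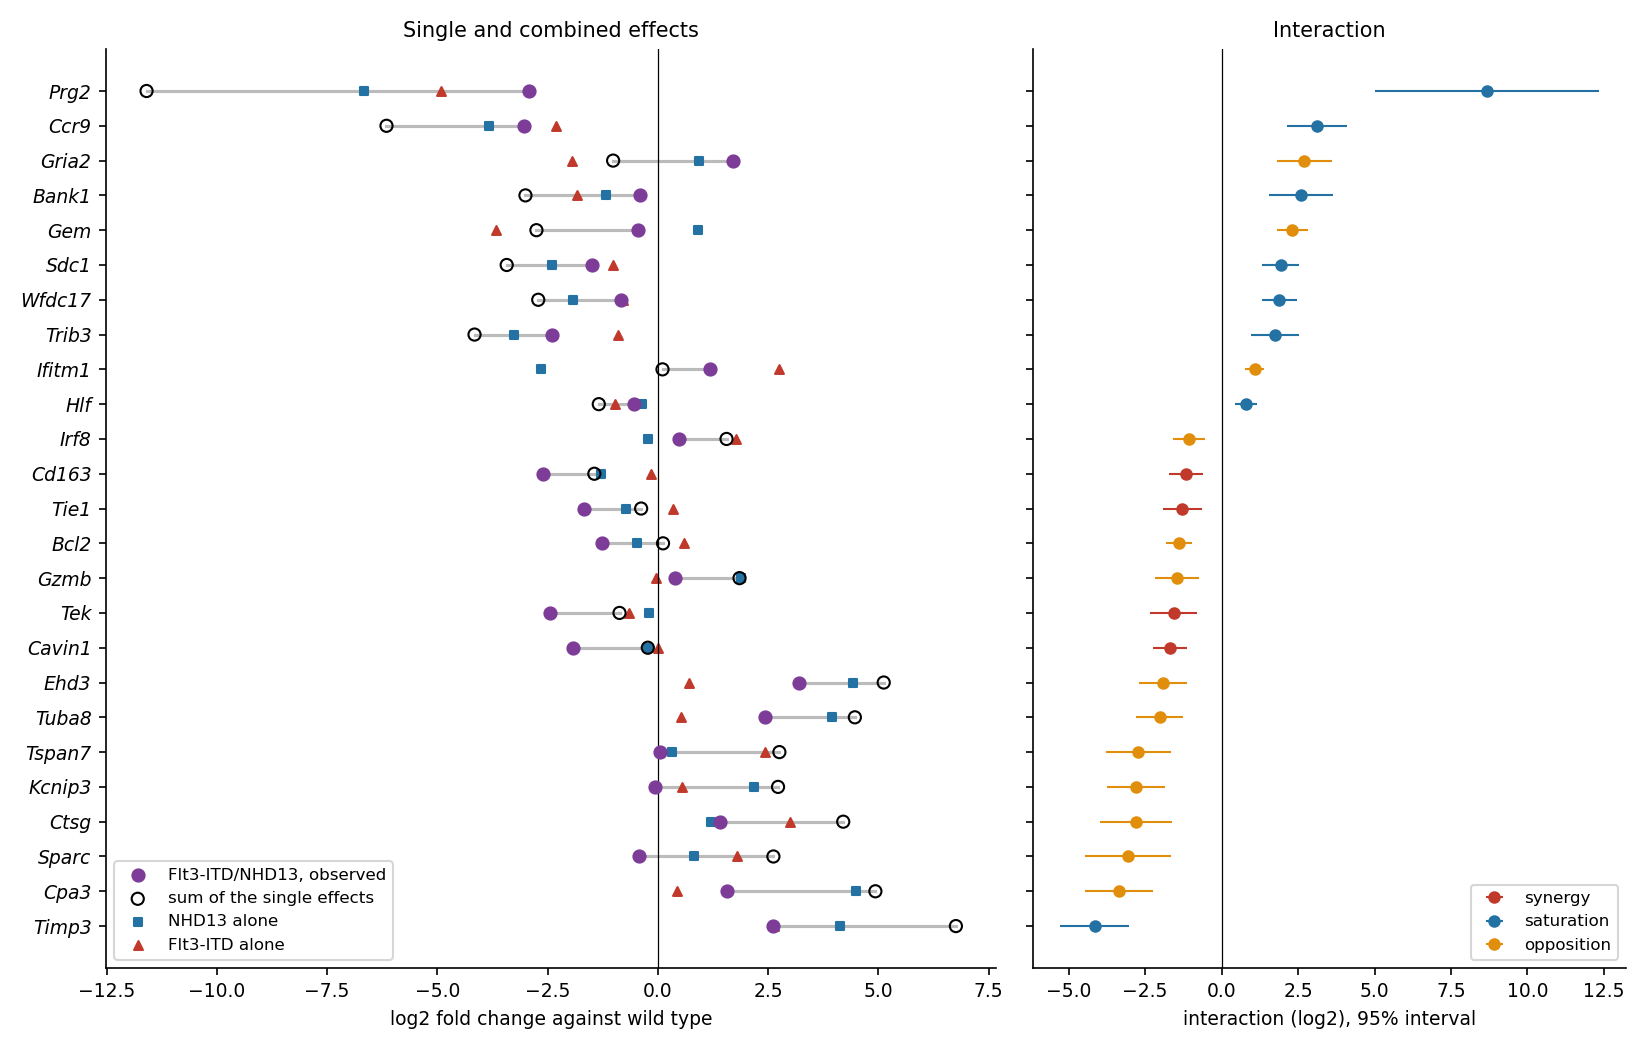
Left, for each of 25 genes named by rule, the log2 fold change against wild type of Flt3-ITD/NHD13 (filled purple), the sum of the single effects (open circle), NHD13 alone (square) and Flt3-ITD alone (triangle); the grey bar spans from sum to observed. Right, the interaction with its 95% interval, coloured by class. Genes are ordered by interaction, from Prg2 (8.68) to Timp3 (−4.15). No interval reaches 0, which follows from choosing genes past the interaction test.

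In 11 of the opposition genes the single mutations moved the gene in opposite directions. For 7 of these the interaction pointed the way NHD13 moved the gene (5 positive, 2 negative), and for 4 it pointed the way of Flt3-ITD, all positive. Gem, a small GTP-binding protein that restrains calcium channels and remodels the cytoskeleton, had the smallest p of all genes. It lay at 130, 110, 116 and 93.2 CPM in Flt3-ITD/NHD13 and at 261, 320, 277 and 302 CPM in NHD13. It lay at 11.9, 11.4, 13.5 and 11.4 CPM in Flt3-ITD and at 140, 149, 186 and 139 CPM in wild type. All 4 Flt3-ITD libraries were far below all others, while the Flt3-ITD/NHD13 libraries lay just under the wild-type ones, and no pair of groups overlapped. Flt3-ITD changed Gem by −1.37 ± 0.17 in the NHD13 background and by −3.67 ± 0.19 in the wild-type background (interaction 2.30 ± 0.24, adjusted p = 1.5e-05). On a linear scale Flt3-ITD left 0.388 of the Gem level in the NHD13 background and 0.0785 of it in the wild-type background.

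Gria2, a subunit of AMPA-type glutamate receptors, lay at 40.7, 19.5, 25.3 and 25.4 CPM in Flt3-ITD/NHD13 and at 13.4, 27.5, 9 and 15 CPM in NHD13. It lay at 1.72, 1.84, 3.17 and 2.3 CPM in Flt3-ITD and at 10.9, 6.75, 10.5 and 5.86 CPM in wild type. The Flt3-ITD libraries were the lowest, as for Gem, but the combined genotype overlapped NHD13 and was above wild type. The Flt3-ITD effect was 0.77 ± 0.28 in the NHD13 background (adjusted p = 0.108) and −1.94 ± 0.32 in the wild-type background (interaction 2.71 ± 0.42, adjusted p = 0.0013). Schip1, which encodes a partner of the NF2 tumour suppressor protein, and Acot3, a peroxisomal acyl-CoA thioesterase, had the same layout, with interactions of 1.32 ± 0.29 (adjusted p = 0.0293) and 2.24 ± 0.52 (adjusted p = 0.0434). Their calls were less firm: Schip1 passed in 8 and Acot3 in 1 of the 16 fits without 1 library, with adjusted p up to 0.0808 and 0.114, and 0.111 and 0.167 with a term for sex.

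Bcl2, which protects cells from apoptosis, moved down in the combination. It lay at 13.2, 15.5, 11.3 and 12.5 CPM in Flt3-ITD/NHD13 and at 25.7, 24, 19.7 and 22.7 CPM in NHD13. It lay at 46.4, 55.9, 36.8 and 51.5 CPM in Flt3-ITD and at 25.8, 32.2, 29.6 and 39.8 CPM in wild type. Every Flt3-ITD/NHD13 library was below all 12 others, which held for no other opposition gene. The single effects were −0.47 ± 0.14 for NHD13 and 0.58 ± 0.14 for Flt3-ITD, and the combined genotype lay 1.27 ± 0.15 below wild type in log2 (interaction −1.39 ± 0.21, adjusted p = 0.000514). Flt3-ITD thus changed Bcl2 by −0.81 ± 0.15 in the NHD13 background and by 0.58 ± 0.14 in the wild-type background. Epb41l4b, a band 4.1 family protein that links membranes to the cytoskeleton, was the other gene of this kind. It lay at 12.3 to 18.7 CPM in Flt3-ITD/NHD13, 9.28 to 14.4 CPM in NHD13, 44.8 to 69.4 CPM in Flt3-ITD and 21.6 to 24.8 CPM in wild type (interaction −0.98 ± 0.20, adjusted p = 0.0161, and 0.051 with a term for sex).

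Among the genes whose interaction went the way of Flt3-ITD, Ifitm1, an interferon-induced membrane protein also expressed by stem cells, had the smallest p. It lay at 563, 635, 729 and 751 CPM in Flt3-ITD/NHD13 and at 55.2, 42, 46.5 and 43.5 CPM in NHD13. It lay at 1911, 1835, 2236 and 1900 CPM in Flt3-ITD and at 263, 288, 280 and 340 CPM in wild type. No pair of groups overlapped, and the combined genotype lay between wild type and Flt3-ITD. Flt3-ITD raised Ifitm1 14.3-fold in the NHD13 background and 6.73-fold in the wild-type background (interaction 1.09 ± 0.15, adjusted p = 0.000314). In linear CPM the gain was the smaller one in the NHD13 background, so the sign of this interaction belongs to the log scale. Kcnk5, a background potassium channel, lay at 56.8 to 62.7 CPM in Flt3-ITD/NHD13, 13.1 to 16.3 CPM in NHD13, 97.8 to 119 CPM in Flt3-ITD and 46.7 to 55.3 CPM in wild type, with an interaction of 0.90 ± 0.14 (adjusted p = 0.00065). Its gain with Flt3-ITD in linear CPM was likewise smaller in the NHD13 background, so this sign too belongs to the log scale. Prr5l, a binding partner of the mTORC2 kinase complex, and Dtnbp1, a subunit of a lysosomal sorting complex, were the other 2 (1.38 ± 0.30 and 0.67 ± 0.15, adjusted p = 0.0278 and 0.0381, and 0.0907 and 0.148 with a term for sex).

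**Figure D3:**
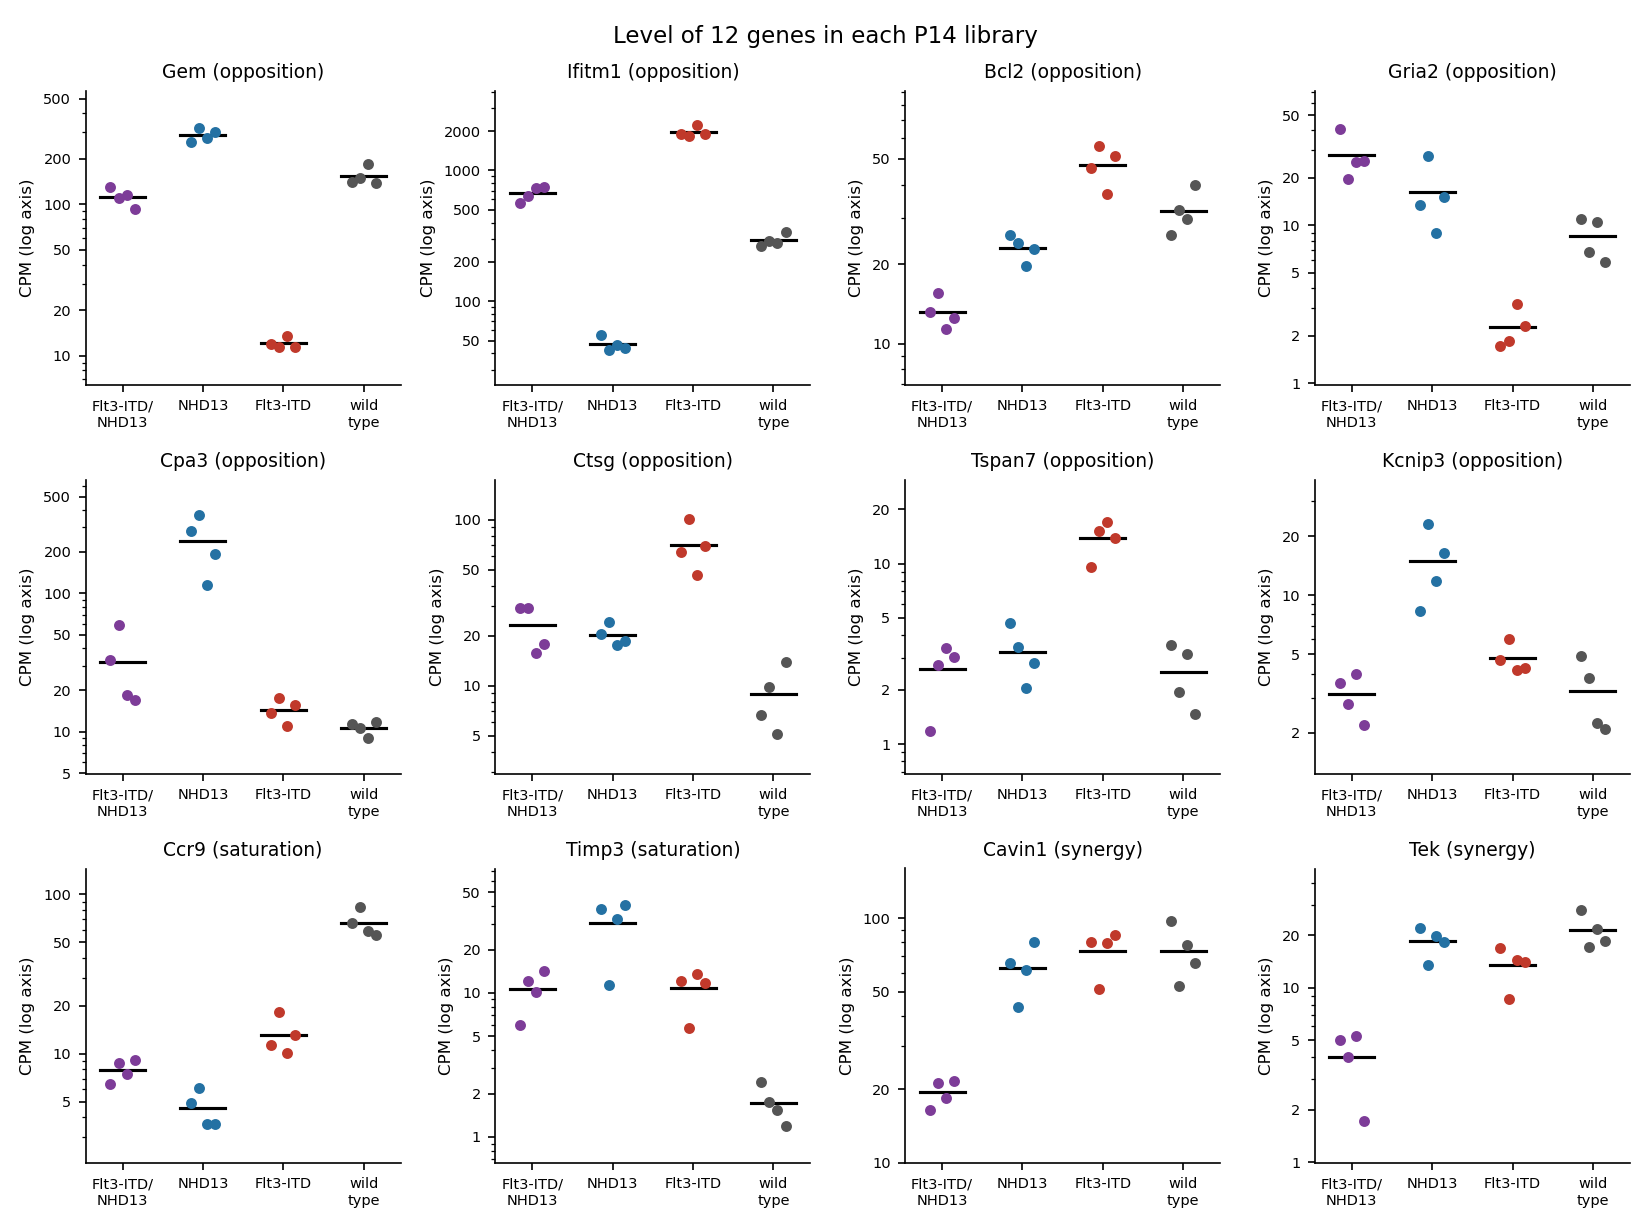
CPM on a log axis of 12 genes past the interaction test, 1 point per library and a bar at the mean of each group of 4. The top row shows opposition genes whose single effects have opposite signs (Gem, Ifitm1, Bcl2, Gria2). The middle row shows opposition genes with 1 single effect past the threshold (Cpa3, Ctsg, Tspan7, Kcnip3), where the NHD13 effect of Ctsg had an adjusted p of 0.0503. The bottom row shows saturation (Ccr9, Timp3) and synergy (Cavin1, Tek), and in the synergy genes the Flt3-ITD/NHD13 libraries lie below all others.

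In 16 opposition genes NHD13 had an effect in the wild-type background that was countered in the Flt3-ITD background (12 negative interactions, 4 positive). Several were raised by NHD13. Cpa3, the carboxypeptidase of mast cells and their progenitors, was the clearest. It lay at 32.7, 59.3, 18.3 and 16.9 CPM in Flt3-ITD/NHD13 and at 281, 368, 114 and 193 CPM in NHD13. It lay at 13.7, 17.6, 10.9 and 15.5 CPM in Flt3-ITD and at 11.3, 10.7, 8.96 and 11.7 CPM in wild type. The NHD13 libraries were above all others, and the combined libraries were far below them, the lowest overlapping Flt3-ITD. NHD13 raised Cpa3 by 1.14 ± 0.37 in the Flt3-ITD background and by 4.49 ± 0.41 in the wild-type background (interaction −3.35 ± 0.52, adjusted p = 0.00342). Other mast cell genes did not pass the interaction test. Tpsb2, a mast cell tryptase, averaged 51.5 CPM in Flt3-ITD/NHD13, 360 CPM in NHD13, 8.30 CPM in Flt3-ITD and 8.32 CPM in wild type (adjusted p = 0.533). Mcpt4, a mast cell chymase, averaged 4.71 CPM in Flt3-ITD/NHD13, 31 CPM in NHD13, 0.419 CPM in Flt3-ITD and 1.42 CPM in wild type (adjusted p = 0.916). Ms4a2, a chain of the IgE receptor, averaged 3.31 CPM in Flt3-ITD/NHD13, 4.47 CPM in NHD13, 0.394 CPM in Flt3-ITD and 0.697 CPM in wild type, and Gata2, a transcription factor of stem and mast cells, 131, 182, 56.5 and 80.9 CPM in those groups. In RNA from a mixed population fewer cells of a type and less RNA per cell cannot be told apart.

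The promoter of Cpa3 is printed because the gene lost most of its NHD13 effect in the combination and its promoter holds the binding sequence of GATA factors, which act in mast cell, erythroid and megakaryocytic progenitors. It covers chr3:20242132-20242431 on the minus strand of GRCm38.p6 (RefSeq), from 250 bases before to 50 after the annotated start of a gene that spans chr3:20215620-20242181. The capitals mark the letters AGATAA, searched on both strands.
Cpa3: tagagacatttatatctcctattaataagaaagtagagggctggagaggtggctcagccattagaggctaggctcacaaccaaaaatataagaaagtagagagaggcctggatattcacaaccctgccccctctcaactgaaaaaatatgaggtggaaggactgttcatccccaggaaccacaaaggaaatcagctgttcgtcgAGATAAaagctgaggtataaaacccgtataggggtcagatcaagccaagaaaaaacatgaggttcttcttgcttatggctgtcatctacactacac
That motif occurred in 11.4% of 27025 RefSeq mouse promoters of this length and in 3 of the 31 promoters matched to opposition genes (Acot3, Cpa3 and Papss2).

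Kcnip3, a calcium-binding protein that modulates potassium channels and represses transcription, was raised by NHD13 only in the wild-type background. It lay at 3.58, 2.8, 4 and 2.2 CPM in Flt3-ITD/NHD13 and at 8.29, 22.9, 11.8 and 16.5 CPM in NHD13. It lay at 4.71, 6.01, 4.18 and 4.25 CPM in Flt3-ITD and at 4.93, 3.78, 2.24 and 2.09 CPM in wild type. Every NHD13 library was above all others, and the combined genotype overlapped wild type. The NHD13 effect was −0.62 ± 0.32 in the Flt3-ITD background (adjusted p = 0.251) and 2.18 ± 0.32 in the wild-type background (interaction −2.80 ± 0.46, adjusted p = 0.0015). Papss2, which makes the sulfate donor for sulfation, and Scin, an actin-severing protein, also had negative interactions at levels below 11 CPM (−3.44 ± 0.60 and −3.28 ± 0.62, adjusted p = 0.00342 and 0.00797). NHD13 libraries were above all others for Papss2 and overlapped Flt3-ITD for Scin.

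Tuba8, an alpha-tubulin, and Ehd3, an ATPase of endocytic recycling, kept part of the rise. Tuba8 lay at 9.26, 13.7, 8.94 and 14.5 CPM in Flt3-ITD/NHD13 and at 34.1, 24.5, 33.9 and 40.2 CPM in NHD13. It lay at 3.76, 3.84, 1.97 and 2.58 CPM in Flt3-ITD and at 2.21, 0.972, 3.49 and 1.74 CPM in wild type. The combined libraries lay between those of NHD13 and the groups without it, with no overlap. NHD13 raised Tuba8 by 1.92 in the Flt3-ITD background and by 3.95 in the wild-type background (interaction −2.03 ± 0.36, adjusted p = 0.00494), and Ehd3 by 2.50 and 4.42 (interaction −1.92 ± 0.37, adjusted p = 0.0128). Mfsd2b, the sphingosine-1-phosphate exporter of red cells and platelets, followed the same order with 33.9 to 42.7 CPM in Flt3-ITD/NHD13, 68.4 to 88.1 CPM in NHD13, 4.3 to 6.28 CPM in Flt3-ITD and 2.79 to 5.09 CPM in wild type, but passed in 1 of the 16 fits without 1 library and not with a term for sex. Slc14a1, a urea transporter, differed less and more evenly: 103 to 142 CPM in Flt3-ITD/NHD13, 158 to 240 CPM in NHD13, 92.4 to 114 CPM in Flt3-ITD and 78.9 to 86.8 CPM in wild type (interaction −1.10 ± 0.15, adjusted p = 0.000313).

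Gzmb, the cytotoxic protease granzyme B, lay at 5, 4.26, 6.12 and 4.33 CPM in Flt3-ITD/NHD13 and at 16.1, 21.7, 8.58 and 8.92 CPM in NHD13. It lay at 3.1 to 4.38 CPM in Flt3-ITD and at 3.19 to 4.09 CPM in wild type. The NHD13 libraries were above all others (interaction −1.46 ± 0.34, adjusted p = 0.0407). The call held in 5 of the 16 fits, those without Flt3-ITD/NHD13 library 3, NHD13 library 3 or 4, Flt3-ITD library 1 or wild-type library 1, and adjusted p was 0.0566 to 0.103 in the others, 0.0683 in a fit of the 4 groups alone and 0.0742 with a term for sex. Gzmb was the only member of the T and NK cell list past the test (1 of 7, with 4 at an unadjusted p under 0.05). The summed level of that list was 91.17 to 115 CPM in Flt3-ITD/NHD13, 94.54 to 124.2 CPM in NHD13, 297.2 to 382.1 CPM in Flt3-ITD and 241.7 to 323.8 CPM in wild type, and Cd3e, Cd8a and Ncr1 were at or near 0. Nkg7, a cytotoxic granule protein, averaged 46.2 CPM in Flt3-ITD/NHD13, 49.7 CPM in NHD13, 289 CPM in Flt3-ITD and 190 CPM in wild type, and Cd4, the T cell co-receptor, 47.1, 34.4, 48.4 and 56.4 CPM in those groups. The part of T or NK cells in these values was not tested. Arid5a, an RNA-binding regulator of cytokine transcripts, was among the 4 genes with the opposite sign. It lay at 83.4 to 97.1 CPM in Flt3-ITD/NHD13, 43.3 to 62.4 CPM in NHD13, 155 to 185 CPM in Flt3-ITD and 147 to 176 CPM in wild type (interaction 0.71 ± 0.15, adjusted p = 0.0242, passing in 9 of the 16 fits).

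In 14 opposition genes Flt3-ITD had an effect in the wild-type background that was countered in the NHD13 background (10 negative, 4 positive). Ctsg, the neutrophil protease cathepsin G, lay at 29.4, 29.3, 15.8 and 17.9 CPM in Flt3-ITD/NHD13 and at 20.5, 24, 17.6 and 18.4 CPM in NHD13. It lay at 63.5, 100.2, 46.5 and 69.3 CPM in Flt3-ITD and at 6.65, 9.82, 5.12 and 13.9 CPM in wild type. The Flt3-ITD libraries were above all others and the wild-type libraries below all others, while the 2 groups with NHD13 overlapped. NHD13 changed Ctsg by 1.21 ± 0.41 in the wild-type background (adjusted p = 0.0503), just short of counting as present. Counted as present, this effect would place Ctsg in saturation. Flt3-ITD changed Ctsg by 0.19 ± 0.39 in the NHD13 background (adjusted p = 0.859) and by 3.0 ± 0.42 in the wild-type background (interaction −2.81 ± 0.56, adjusted p = 0.0272). Adjusted p was 0.0507 to 0.0664 without Flt3-ITD/NHD13 library 3 or 4, NHD13 library 2 or 4, Flt3-ITD library 2 or wild-type library 3, and 0.0854 with a term for sex.

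Irf8, a transcription factor of monocyte and dendritic cell development, was also highest in the Flt3-ITD libraries. It lay at 33.1, 40.4, 34.7 and 39.1 CPM in Flt3-ITD/NHD13 and at 24.3, 24.8, 22.7 and 18.7 CPM in NHD13. It lay at 91.6, 108, 75.9 and 85 CPM in Flt3-ITD and at 19.1, 26.2, 23.1 and 37.2 CPM in wild type. Flt3-ITD raised Irf8 in both backgrounds, by 0.70 ± 0.18 in the NHD13 background and by 1.78 ± 0.18 in the wild-type background (interaction −1.07 ± 0.25, adjusted p = 0.047). The call held only without NHD13 library 4, Flt3-ITD library 3 or wild-type library 4, with adjusted p of 0.0573 to 0.108 in the other 13 fits, 0.133 with a term for sex and 0.0956 without the low-count filter. Ctsg and Irf8 were the 2 of 23 granulocyte-monocyte progenitor genes past the test, and 9 of the 23 had an unadjusted p under 0.05. The summed level of that list was 852.1 to 1535 CPM in Flt3-ITD/NHD13, 1053 to 1309 CPM in NHD13, 2243 to 2758 CPM in Flt3-ITD and 1136 to 1409 CPM in wild type. Mpo, the neutrophil enzyme myeloperoxidase, made up most of the sum in Flt3-ITD, with means of 747 CPM in Flt3-ITD/NHD13, 802 CPM in NHD13, 1730 CPM in Flt3-ITD and 578 CPM in wild type. Flt3-ITD raised 3 of the 23 members in the NHD13 background and 6 in the wild-type background, with median effects of −0.10 and −0.15. The part of cell composition in these values was not tested.

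The promoters of Ctsg and of Kcnip3 are printed because both hold the palindrome bound by STAT factors, which act below FLT3, and because the first gene lost its Flt3-ITD effect and the second its NHD13 effect in the combination. They cover chr14:56102525-56102824 and chr2:127522045-127522344, both on the minus strand of GRCm38.p6 (RefSeq). The genes span chr14:56099881-56102574 and chr2:127456498-127522094. Capitals mark the letters TTCNNNGAA, searched on both strands, with N for any base.
Ctsg: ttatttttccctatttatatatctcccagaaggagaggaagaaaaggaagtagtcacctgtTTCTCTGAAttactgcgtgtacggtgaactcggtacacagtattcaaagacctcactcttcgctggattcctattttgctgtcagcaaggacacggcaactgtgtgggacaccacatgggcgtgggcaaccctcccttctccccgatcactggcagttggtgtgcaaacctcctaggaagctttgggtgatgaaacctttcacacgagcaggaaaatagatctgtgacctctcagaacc
Kcnip3: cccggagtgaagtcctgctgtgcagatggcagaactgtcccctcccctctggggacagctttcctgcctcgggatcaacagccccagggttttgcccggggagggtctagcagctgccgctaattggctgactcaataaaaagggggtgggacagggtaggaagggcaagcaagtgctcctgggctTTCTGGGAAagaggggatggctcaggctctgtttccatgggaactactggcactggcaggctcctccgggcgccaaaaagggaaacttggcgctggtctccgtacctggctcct
The motif occurred in 8.47% of the 27025 promoters. Among the genes past the test it was in 5 of 31 promoters of opposition genes (Ctsg, Dtnbp1, Gzmb, Irf8 and Kcnip3), 1 of 24 of saturation genes and 0 of 5 of synergy genes. The E-box CACGTG was in 7.24% of all promoters, in 3 of 31 for opposition and in 2 of 24 for saturation. The interferon response element was in 3.49% of all and in 1 of 24 for saturation, that of Tgfbi. A match is a description of these letters and not a binding site.

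Tspan7, a tetraspanin of the cell surface, lost its Flt3-ITD effect in the NHD13 background. It lay at 1.17, 2.75, 3.39 and 3.04 CPM in Flt3-ITD/NHD13 and at 4.69, 3.46, 2.05 and 2.81 CPM in NHD13. It lay at 9.56, 15.2, 17 and 13.8 CPM in Flt3-ITD and at 3.52, 1.94, 3.14 and 1.46 CPM in wild type. The Flt3-ITD libraries were above all others and the other groups overlapped, with Flt3-ITD effects of −0.29 ± 0.36 in the NHD13 background and 2.43 ± 0.35 in the wild-type background (interaction −2.72 ± 0.50, adjusted p = 0.00988). The constant region gene Tcrg-C1 of the T cell receptor gamma chain was alike, at 0.987 to 2.11 CPM in Flt3-ITD/NHD13, 0.427 to 0.987 CPM in NHD13, 6.6 to 13.2 CPM in Flt3-ITD and 0.474 to 1.71 CPM in wild type (−2.64 ± 0.50, adjusted p = 0.00969). Bhlhe40, a basic helix-loop-helix repressor, lay at 5.59 to 10 CPM in Flt3-ITD/NHD13, 3.68 to 5.58 CPM in NHD13, 24.7 to 33.5 CPM in Flt3-ITD and 3.68 to 7.2 CPM in wild type (−1.63 ± 0.31, adjusted p = 0.00993). The prion protein gene Prnp lay at 5.73 to 10.9 CPM in Flt3-ITD/NHD13, 3.42 to 6.97 CPM in NHD13, 18.1 to 22.4 CPM in Flt3-ITD and 4.19 to 5.14 CPM in wild type (−1.57 ± 0.31, adjusted p = 0.0118). In each of these genes every Flt3-ITD library was above all 12 others.

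Sparc, a matrix-binding glycoprotein, was the least even of this group. It lay at 2.53, 2.5, 3.77 and 6.53 CPM in Flt3-ITD/NHD13 and at 17.2, 1.62, 11.3 and 7.4 CPM in NHD13. It lay at 17.9, 11.7, 20.8 and 22.4 CPM in Flt3-ITD and at 3.98, 2.92, 5.38 and 9.13 CPM in wild type. The NHD13 libraries alone spanned nearly the whole range. The interaction of −3.05 ± 0.67 (adjusted p = 0.047) held only without Flt3-ITD/NHD13 library 4, NHD13 library 2, Flt3-ITD library 2 or wild-type library 4, with adjusted p of 0.0673 to 0.101 in the other 12 fits, 0.0829 without the low-count filter and 0.137 in a fit of the 4 groups alone. Tnip3, a binding partner of the NF-kB inhibitor A20, was lowered by Flt3-ITD less in the NHD13 background than in wild type, at 17.1 to 22.3 CPM in Flt3-ITD/NHD13, 30.2 to 35.4 CPM in NHD13, 8.39 to 13.5 CPM in Flt3-ITD and 33 to 58.2 CPM in wild type (1.30 ± 0.27, adjusted p = 0.017, and 0.0789 with a term for sex).

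Saturation comprised 17 positive interactions, of genes lowered by both mutations, and 11 negative ones, of genes raised by both. In 14 of the 28 the combined genotype was closer to wild type than either single mutant was, in 10 it lay between the single mutants, and in 4 it went beyond both. Ccr9, the chemokine receptor of thymus-homing progenitors, lay at 6.48, 8.73, 7.49 and 9.15 CPM in Flt3-ITD/NHD13 and at 4.93, 6.11, 3.65 and 3.65 CPM in NHD13. It lay at 11.3, 18.3, 10.1 and 13.1 CPM in Flt3-ITD and at 66.2, 82.6, 58.6 and 55.3 CPM in wild type. Every mutant library was far below wild type, and the combined libraries lay between those of the single mutants without overlap. The sum of the single effects was −6.15, against −3.04 ± 0.33 observed (interaction 3.12 ± 0.47, adjusted p = 0.0015). The fitted difference between the combined genotype and either single mutant did not pass the test (0.80 ± 0.34 against NHD13, adjusted p = 0.2, and −0.72 ± 0.32 against Flt3-ITD, adjusted p = 0.17).

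Timp3, an inhibitor of matrix metalloproteinases, mirrored Ccr9 upward. It lay at 5.99, 12.1, 10.1 and 14.1 CPM in Flt3-ITD/NHD13 and at 38.4, 11.3, 32.5 and 40.8 CPM in NHD13. It lay at 12.2, 5.68, 13.6 and 11.7 CPM in Flt3-ITD and at 2.42, 1.74, 1.55 and 1.19 CPM in wild type. All mutant libraries were above wild type, and the combined ones overlapped Flt3-ITD and the lowest NHD13 library. The sum of the single effects was 6.76, against 2.61 ± 0.41 observed (interaction −4.15 ± 0.54, adjusted p = 0.000514), which left the combined genotype 1.53 ± 0.35 below NHD13 in log2. Chst2, a sulfotransferase of cell-surface glycans, was also lowest in wild type, at 2.43 to 3.44 CPM in Flt3-ITD/NHD13, 5.28 to 8.63 CPM in NHD13, 2.51 to 3.58 CPM in Flt3-ITD and 1.48 to 1.74 CPM in wild type (−2.30 ± 0.34, adjusted p = 0.000514).

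Among genes lowered by both, Sdc1, the cell-surface proteoglycan syndecan-1, lay at 4.82, 5.94, 3.95 and 7.03 CPM in Flt3-ITD/NHD13 and at 3.35, 3.98, 2.43 and 1.79 CPM in NHD13. It lay at 8.76, 5.74, 7.23 and 8.45 CPM in Flt3-ITD and at 13.4, 12.7, 17.2 and 18.3 CPM in wild type (interaction 1.93 ± 0.29, adjusted p = 0.000514). The combined libraries lay among those of the single mutants and below all wild-type ones. Wfdc17, a secreted whey acidic protein domain protein of myeloid cells, lay at 41.5, 41.5, 32.6 and 37.1 CPM in Flt3-ITD/NHD13 and at 22, 11.7, 20.5 and 17.4 CPM in NHD13. It lay at 39.6, 31.1, 39.9 and 45.4 CPM in Flt3-ITD and at 84.5, 45.3, 61.1 and 79.6 CPM in wild type (1.89 ± 0.27, adjusted p = 0.000514). Here the combined genotype overlapped Flt3-ITD and stood above every NHD13 library. Tgfbi, a secreted matrix protein of myeloid cells, lay at 26.3 to 47.5 CPM in Flt3-ITD/NHD13, 35.9 to 42.4 CPM in NHD13, 45.1 to 52.1 CPM in Flt3-ITD and 86 to 133 CPM in wild type (1.17 ± 0.22, adjusted p = 0.00969).

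Bank1, a scaffold of B cell receptor signalling, lay at 35.3, 30.3, 46.7 and 56.7 CPM in Flt3-ITD/NHD13 and at 28.3, 28.1, 20.1 and 22.6 CPM in NHD13. It lay at 12.5, 18.5, 14.1 and 18.2 CPM in Flt3-ITD and at 50.4, 72, 56.3 and 45 CPM in wild type. The combined libraries were above both single mutants and overlapped wild type (interaction 2.60 ± 0.50, adjusted p = 0.019, and 0.0512 without Flt3-ITD/NHD13 library 4 and 0.0535 without NHD13 library 4). Hlf, a transcription factor of stem cell identity, showed the pattern at high level, at 289, 344, 411 and 386 CPM in Flt3-ITD/NHD13 and at 468, 347, 380 and 421 CPM in NHD13. It lay at 275, 216, 287 and 275 CPM in Flt3-ITD and at 414, 525, 577 and 558 CPM in wild type. Flt3-ITD lowered Hlf by 0.98 ± 0.12 in the wild-type background, with an effect of −0.18 ± 0.12 in the NHD13 background (interaction 0.80 ± 0.17, adjusted p = 0.0184, and 0.0505 to 0.0591 without Flt3-ITD/NHD13 library 3 or 4 or wild-type library 3 or 4). Trib3, a pseudokinase induced by stress, lay at 2.47 to 5.04 CPM in Flt3-ITD/NHD13, 1.41 to 2.3 CPM in NHD13, 7.15 to 11.4 CPM in Flt3-ITD and 14.1 to 22.1 CPM in wild type. Its interaction was 1.76 ± 0.37 (adjusted p = 0.022, and 0.051 to 0.0808 without Flt3-ITD/NHD13 library 3, NHD13 library 1 or 2, or wild-type library 3 or 4). With a term for sex, adjusted p was 0.0625 for Hlf and 0.0906 for Trib3.

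Prg2, Ear1, Ear2 and Ear6, genes of eosinophil granules, passed the test with positive interactions. Prg2, the eosinophil major basic protein, lay at 48.8, 15.7, 10.1 and 85 CPM in Flt3-ITD/NHD13 and at 4.29, 2.65, 2.43 and 2.47 CPM in NHD13. It lay at 1.28, 1.25, 0.657 and 37.2 CPM in Flt3-ITD and at 194, 145, 674 and 188 CPM in wild type. Every wild-type library was above every mutant one, and the combined genotype was above NHD13, but Flt3-ITD library 4 lay within the range of the combined ones. The interaction was 8.68 ± 1.74 (adjusted p = 0.0293, and 0.0508 to 0.0747 in 9 of the 16 fits, those without Flt3-ITD/NHD13 library 4, any NHD13 library, Flt3-ITD library 1, 2 or 3, or wild-type library 3). It was 11.9 without Flt3-ITD library 4 (adjusted p = 0.00304), and adjusted p was 0.0718 with a term for sex. The eosinophil ribonucleases Ear1, Ear2 and Ear6 also had their highest means in wild type, at levels of 0.0471 to 2.24 CPM in Flt3-ITD/NHD13, 0 to 0.345 CPM in NHD13, 0 to 0.28 CPM in Flt3-ITD and 0.767 to 9.95 CPM in wild type. These genes are near-identical copies whose reads the counting may have split, and with libraries at 0 their fitted interactions depend on the prior count and are not given. Epx, eosinophil peroxidase, averaged 7.87 CPM in Flt3-ITD/NHD13, 0.407 CPM in NHD13, 4.23 CPM in Flt3-ITD and 94.7 CPM in wild type. The summed level of the mast cell, basophil and eosinophil list was 180.5 to 368.7 CPM in Flt3-ITD/NHD13, 564.5 to 1174 CPM in NHD13, 86.93 to 164.6 CPM in Flt3-ITD and 330.6 to 982.3 CPM in wild type, with the wild-type maximum in library 3. The part of such cells in the progenitor preparations was not tested.

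Synergy was rare. Of its 7 genes, 5 had an NHD13 effect that was larger in the Flt3-ITD background (Hoxb5os, Ddit4l, Cd163, Tie1 and Nectin1). In the other 2 (Cavin1 and Tek) neither single effect passed the threshold. For Tek every Flt3-ITD library was nonetheless below every wild-type one. In 5 of the 7 every Flt3-ITD/NHD13 library was below all 12 others and in 1, Hoxb5os, above them, against 1 of 41 opposition genes (Bcl2) and 0 of 28 saturation genes. This contrast between classes largely follows from the rule of the sort, which used the same libraries, and it carries no test. Cavin1, a coat protein of caveolae, lay at 16.4, 21.2, 18.4 and 21.6 CPM in Flt3-ITD/NHD13 and at 65.6, 43.5, 61.7 and 79.8 CPM in NHD13. It lay at 80, 51.1, 79.1 and 85.2 CPM in Flt3-ITD and at 97.6, 52.7, 77.9 and 65.8 CPM in wild type. The 3 other groups overlapped throughout. Flt3-ITD changed Cavin1 by −1.69 ± 0.19 in the NHD13 background and by 0.01 ± 0.19 in the wild-type background (interaction −1.69 ± 0.27, adjusted p = 0.0015), and the call held in all 16 fits.

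Tek and Tie1 encode the angiopoietin receptor and its partner, expressed by stem cells and by endothelium. Tek lay at 5, 4, 5.27 and 1.71 CPM in Flt3-ITD/NHD13 and at 22.1, 13.6, 19.9 and 18.3 CPM in NHD13. It lay at 16.9, 8.66, 14.3 and 14.1 CPM in Flt3-ITD and at 28, 17, 21.8 and 18.6 CPM in wild type (interaction −1.57 ± 0.36, adjusted p = 0.0429). Tie1 lay at 6.24 to 9.76 CPM in Flt3-ITD/NHD13, 11.9 to 21.1 CPM in NHD13, 24.5 to 41.8 CPM in Flt3-ITD and 20.5 to 30.1 CPM in wild type (−1.28 ± 0.30, adjusted p = 0.0481). The combined libraries were the lowest for both. Tek held only without Flt3-ITD/NHD13 library 1 or 3, NHD13 library 2, Flt3-ITD library 2 or wild-type library 1 (0.0558 to 0.0965 in the other fits), and Tie1 only without NHD13 library 2 or Flt3-ITD library 2 (0.0505 to 0.106). Without the low-count filter adjusted p was 0.104 for Tek and 0.118 for Tie1. It was 0.0605 for Tek in a fit of the 4 groups alone and 0.134 for Tie1 with a term for sex. The endothelial genes Cdh5 and Kdr averaged 0.26 and 0.66 CPM in Flt3-ITD/NHD13, 0.81 and 0.89 CPM in NHD13, 0.23 and 0.43 CPM in Flt3-ITD and 0.24 and 0.43 CPM in wild type. The summed endothelial and stromal list was 90.71 to 112.5 CPM in Flt3-ITD/NHD13, 133.3 to 161.1 CPM in NHD13, 105.9 to 130.8 CPM in Flt3-ITD and 147.1 to 164.4 CPM in wild type. Most of it was Pecam1, an adhesion molecule of endothelium and of blood cells, with means of 91 CPM in Flt3-ITD/NHD13, 144 CPM in NHD13, 118 CPM in Flt3-ITD and 152 CPM in wild type. The part of endothelial cells in these values was not tested.

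Cd163, a scavenger receptor for haemoglobin, lay at 4.26, 3.14, 3.15 and 1.82 CPM in Flt3-ITD/NHD13 and at 6.56, 9.7, 6.42 and 8.08 CPM in NHD13. It lay at 16.9, 17.1, 16.2 and 16.4 CPM in Flt3-ITD and at 21.4, 16.5, 20.8 and 15.8 CPM in wild type. NHD13 lowered it in both backgrounds, by 2.45 in log2 in the Flt3-ITD background and by 1.28 in the wild-type background (interaction −1.17 ± 0.27, adjusted p = 0.0381). The call held only without Flt3-ITD/NHD13 library 1, NHD13 library 1 or 3, or wild-type library 1, with 0.0518 to 0.0936 in the other fits, 0.0546 in a fit of the 4 groups alone and 0.0697 with a term for sex. Hoxb5os, an antisense transcript of the Hoxb5 locus, was raised most in the combination, at 5.51 to 7.4 CPM in Flt3-ITD/NHD13, 2.57 to 3.72 CPM in NHD13, 0.0365 to 0.616 CPM in Flt3-ITD and 0.418 to 0.755 CPM in wild type. Its interaction of 2.41 ± 0.57 (adjusted p = 0.047) held in 1 of the 16 fits, and without a stated strand setting its reads cannot be told from those of the gene on the other strand. Ddit4l, an inhibitor of mTORC1, was raised (1.90 ± 0.42, adjusted p = 0.0293) and Nectin1, an adhesion molecule at under 5 CPM, was lowered (−3.49 ± 0.81, adjusted p = 0.0429). Each held in 4 of the 16 fits, and with a term for sex none of Hoxb5os, Ddit4l and Nectin1 passed (adjusted p = 0.0965, 0.106 and 0.0829).

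Gene lists of the pathways below the mutations had few or no members past the interaction test. Over all tested genes the median interaction was 0.01 and 0.535% passed. At that share a short list with 0 calls does not stand apart from all tested genes. In 40 type I interferon-stimulated genes 0 passed (1 with unadjusted p under 0.05, and 0 with DESeq2), with a median of 0.23. NHD13 raised 36 of them in the Flt3-ITD background and 33 in the wild-type background (medians 1.20 and 0.97), and Flt3-ITD raised 7 in the NHD13 background and 5 in the wild-type background (medians 0.66 and 0.39). The summed level of the list was 8181 to 9335 CPM in Flt3-ITD/NHD13, 5092 to 6683 CPM in NHD13, 3217 to 4844 CPM in Flt3-ITD and 2453 to 4253 CPM in wild type, so the combined libraries were above all others. Irf7, the interferon regulator, was an example with NHD13 effects of 1.90 in the Flt3-ITD background and 1.93 in the wild-type background.

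Of 15 STAT5 targets, which lie below the receptor, 0 passed (1 with DESeq2) and 5 had an unadjusted p under 0.05, against 8.96% of all tested genes. Their interactions had a median of 0.33 and ran from −0.56 to 1.22, and Flt3-ITD raised 5 and lowered 1 in either background. Socs2, a STAT5-induced inhibitor of cytokine signalling, lay at 146, 177, 214 and 194 CPM in Flt3-ITD/NHD13 and at 4.83, 6.92, 1.67 and 4.38 CPM in NHD13. It lay at 238, 171, 231 and 218 CPM in Flt3-ITD and at 13.4, 9.1, 7.88 and 11.3 CPM in wild type. Both groups with Flt3-ITD were far above both without it, with effects of 5.37 in the NHD13 background and 4.37 in the wild-type background (interaction 1.0, adjusted p = 0.272). Cish, another such inhibitor, had effects of 1.72 in the NHD13 background and 1.65 in the wild-type background. Of 10 MAPK feedback genes 0 passed (0 unadjusted, 0 with DESeq2). Flt3-ITD lowered 6 in the NHD13 background and 7 in the wild-type background, Dusp6, an ERK phosphatase, by 2.57 and 2.14.

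On the NHD13 side, 0 of 16 HOX cluster and cofactor genes passed (1 unadjusted, 0 with DESeq2), and NHD13 raised 12 of them in the Flt3-ITD background and 11 in the wild-type background. Pbx3, a HOX cofactor, rose by 5.43 in the Flt3-ITD background and 5.03 in the wild-type background, and Hoxa9 by 1.29 and 0.91. Of 8 fetal progenitor genes 0 passed (1 unadjusted, 0 with DESeq2), and NHD13 raised 7 in either background, Lin28b, an RNA-binding protein of fetal hematopoiesis, by 4.26 in the Flt3-ITD background and 4.31 in the wild-type background. MYC and ribosome biogenesis genes differed between backgrounds in their single calls, with 0 of 20 raised by Flt3-ITD in the NHD13 background against 11 in the wild-type background, but their medians were 0.19 and 0.29 and 0 passed the interaction test (0 unadjusted, 0 with DESeq2). The summed megakaryocyte-erythroid list was 2045 to 2141 CPM in Flt3-ITD/NHD13, 4471 to 5329 CPM in NHD13, 2097 to 2474 CPM in Flt3-ITD and 4847 to 5503 CPM in wild type. Both groups with Flt3-ITD were below both without it in this sum, most of which was Car2, carbonic anhydrase 2, in the groups without Flt3-ITD (2994 CPM in NHD13 and 4300 CPM in wild type). Of 19 members 0 passed the interaction test (4 unadjusted, 0 with DESeq2, median −0.31). Flt3-ITD lowered 8 of them in the NHD13 background and 3 in the wild-type background (medians −0.95 and −0.24), and NHD13 raised 10 in the Flt3-ITD background and 11 in the wild-type background (medians 0.94 and 1.24).

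Lineage and survival lists held the remaining calls. Of 22 stem cell genes 3 passed (Ifitm1 and Hlf positive, Tek negative), with a median of −0.09, and 9 had an unadjusted p under 0.05. Of 18 lymphoid priming genes 1 passed, Ccr9 (4 unadjusted). Of 15 apoptosis and p53 genes 1 passed, Bcl2 (4 unadjusted), and of 20 cytokine and growth factor receptor genes 1 passed, Tek (7 unadjusted). Of 10 mast cell, basophil and eosinophil genes 2 passed, Prg2 and Cpa3, in opposite directions (6 unadjusted, and 3 positive and 2 negative with DESeq2). Over all tested genes the unadjusted share was 8.96%. No member passed of the cell cycle (28 genes, 6 unadjusted, 2 with DESeq2), MHC and interferon-gamma-linked (21, 3, 0), macrophage and dendritic (11, 4, 1), progenitor identity (10, 2, 1), immediate early (9, 0, 0), endothelial and stromal (7, 1, 0), mature B and plasma cell (6, 0, 0), mature erythroid (5, 2, 0) or hepatocyte (2, 0, 0) lists.

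**Figure D4:**
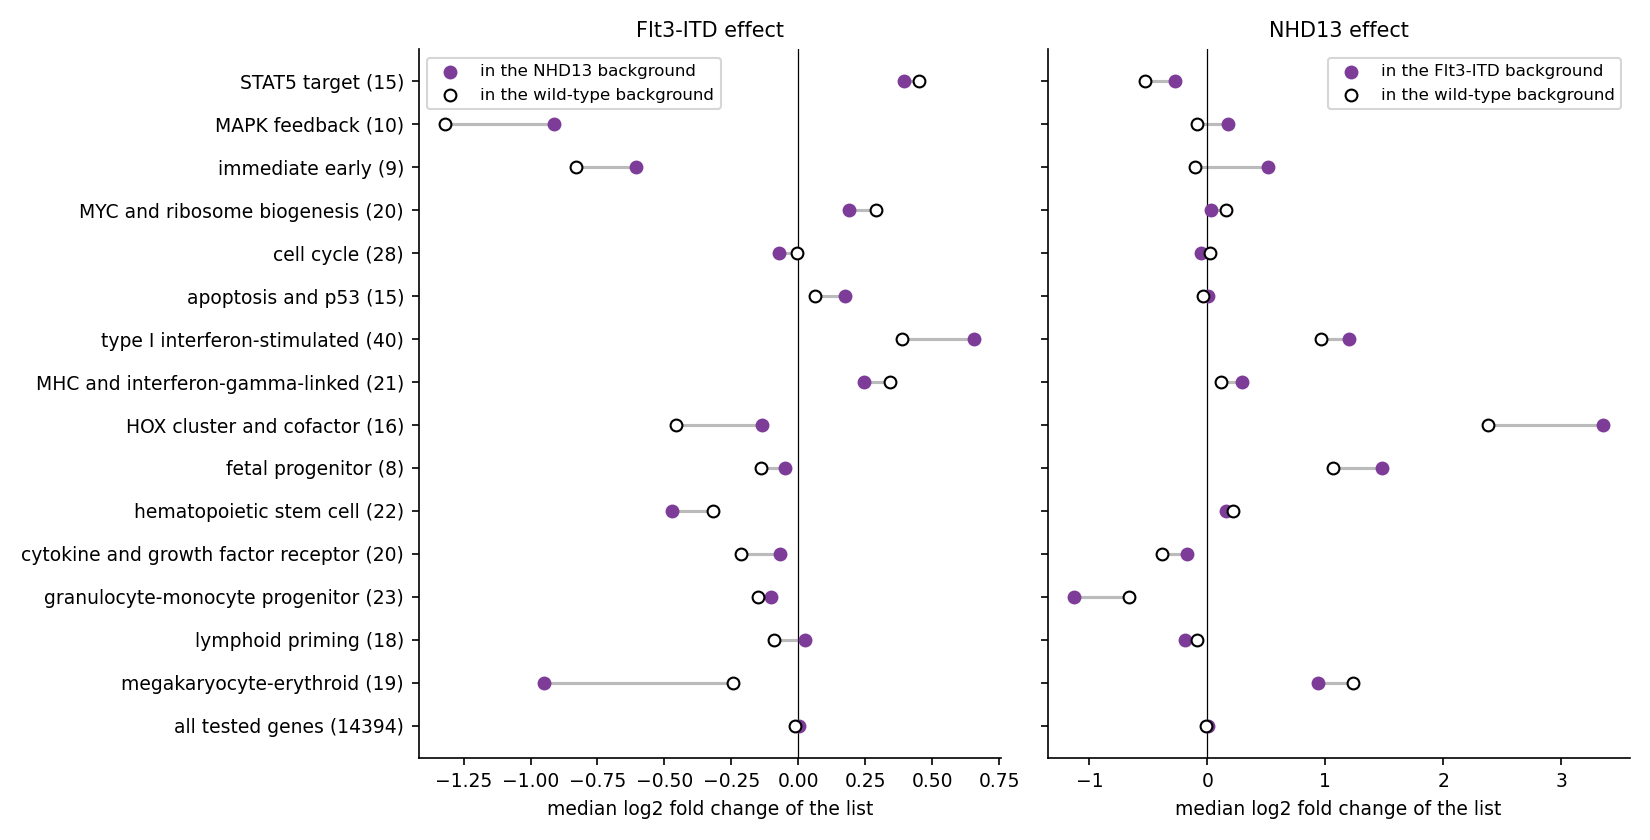
Median log2 effect of Flt3-ITD in the NHD13 and wild-type backgrounds, and of NHD13 in the Flt3-ITD and wild-type backgrounds, for 15 gene lists and for all tested genes. The type I interferon list has NHD13 medians of 1.20 and 0.97 and the HOX list of 3.36 and 2.38, while the median of all tested genes lies at about 0 for each effect.

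At birth (P0) 4 libraries each of Flt3-ITD/NHD13, Flt3-ITD and wild type could be matched to columns of counts. Another 4 P0 columns match no sample label, and the P0 NHD13 samples were not analysed here, so the interaction itself was not fitted at that age, but the NHD13 effect in the Flt3-ITD background could be measured in samples that the P14 sort did not use. It passed for 16 of the 73 interaction genes tested at P0 (21.9%, against 2.88% of all 14359 genes), each with its P14 sign. Of the opposition genes 14 of 41 passed (34.1%), of the saturation genes 1 of 24 (4.17%) and of the synergy genes 1 of 7 (14.3%). At P14 the same effect had passed upward for 22 and downward for 26 of the interaction genes. It had passed in either direction for 13.5% of all genes tested at P14. The interaction genes were thus already rich in this effect, which is a part of the interaction. The P0 shares, by class too, show where the NHD13 effect recurred and do not test the interaction. Flt3-ITD/NHD13 against wild type passed for 9 of the 73 (12.3%, against 2.08%), 7 of them with their P14 sign. The other 2 were Irf8 (−1.16 at P0, adjusted p = 0.0154, and 0.49 at P14) and Tnip3 (1.36 at P0, adjusted p = 0.00114, and −1.20 at P14). Flt3-ITD against wild type passed for 1 (1.37%, against 0.0139%).

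Gem lay at 231, 365, 202.8 and 271 CPM in P0 Flt3-ITD/NHD13, at 40.4, 81.8, 29.7 and 31.4 CPM in P0 Flt3-ITD, and at 99, 216, 81.5 and 95.9 CPM in P0 wild type. The Flt3-ITD libraries were again below the combined ones, by 2.54 ± 0.37 (adjusted p = 0.00117), although Flt3-ITD library 2 overlapped wild type. Schip1 lay at 84, 84.3, 64.4 and 70.6 CPM in Flt3-ITD/NHD13, at 10.4, 12.2, 9.39 and 11.3 CPM in Flt3-ITD and at 15.1, 17, 10.1 and 11.2 CPM in wild type. The combined libraries stood far above both other groups (2.81 ± 0.20 against Flt3-ITD, adjusted p = 4.77e-07). Acot3 (4.10 ± 0.48), Hoxb5os (4.04 ± 0.47) and Gria2 (2.62 ± 0.53) were also higher in the combination than in Flt3-ITD, with adjusted p of 0.000133, 0.000127 and 0.0128. For Gria2, Flt3-ITD/NHD13 library 2 lay at 1.95 CPM, near the Flt3-ITD libraries at 1.2 to 1.38 CPM, and the other 3 at 7.9 to 12.2 CPM.

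Tspan7 and Sparc were lower in the combination than in Flt3-ITD, as at P14. Tspan7 lay at 2.39, 2.62, 2.33 and 2.05 CPM in Flt3-ITD/NHD13, at 10.7, 8.09, 8.16 and 8.16 CPM in Flt3-ITD and at 3.25, 2.48, 1.82 and 1.46 CPM in wild type (−1.90 ± 0.28, adjusted p = 0.00108). Sparc lay at 3.4, 1.1, 2.55 and 1.25 CPM in Flt3-ITD/NHD13, at 13.1, 22.7, 22.7 and 29.8 CPM in Flt3-ITD and at 6.3, 10.4, 3.06 and 4.18 CPM in wild type (−3.40 ± 0.44, adjusted p = 0.000356). In both genes the Flt3-ITD libraries were above all others. Cpa3 could not be read at birth, where its libraries ran from 81.5 to 1347 CPM in Flt3-ITD/NHD13, from 89.9 to 885 CPM in Flt3-ITD and from 246 to 1664 CPM in wild type (0.57 ± 1.12, adjusted p = 0.854). Bcl2 (−0.42 ± 0.18, adjusted p = 0.264), Ifitm1 (−1.31 ± 0.46, adjusted p = 0.178) and Cavin1 (−0.85 ± 0.30, adjusted p = 0.163) had their P14 sign and did not pass.

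**Figure D5:**
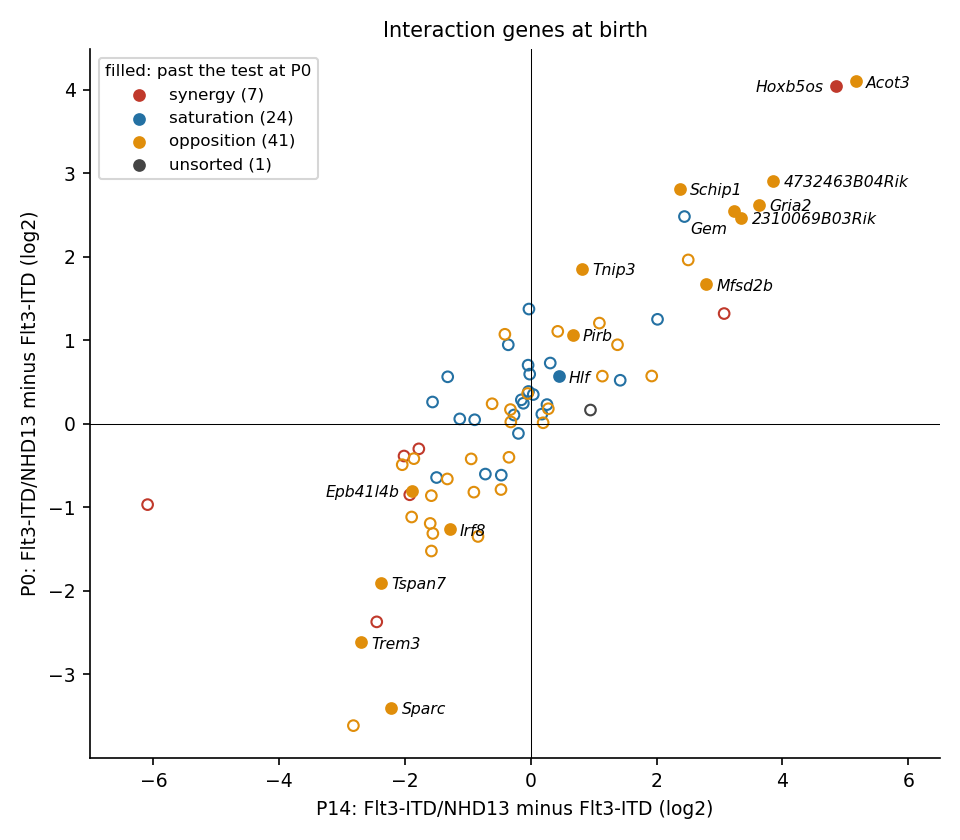
Log2 difference of Flt3-ITD/NHD13 from Flt3-ITD at birth (vertical) against the same difference at P14 (horizontal) for the 73 interaction genes tested at both ages, coloured by class; filled points, named, pass the test at birth. The 16 filled points all lie in the lower left or upper right quadrant, with Acot3 and Hoxb5os highest and Sparc lowest.

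The series also holds the Runx1-heterozygous background at P14, with and without Flt3-ITD, 4 libraries each. The effect of Flt3-ITD in the NHD13 background minus that in the Runx1-heterozygous background uses no wild-type or Flt3-ITD library, and it passed for 532 of all tested genes (3.7%). Among the 77 interaction genes it passed for 56 with the sign of the interaction and for 0 with the other sign. It shares the Flt3-ITD/NHD13 and NHD13 libraries with the interaction, which pushes both toward the same sign. The counts and values therefore stand side by side only and carry no test of the interaction. For Timp3 this difference was −6.69 ± 0.56, for Ccr9 6.90 ± 0.61, for Tspan7 −4.33 ± 0.49, for Gem 1.72 ± 0.24 and for Bcl2 −1.52 ± 0.21 (adjusted p of 6.15e-06 or less, 5.75e-05 for Gem and 2e-05 for Bcl2). For Ifitm1 it was 0.02 ± 0.15 (adjusted p = 0.987), for Tek 0.06 ± 0.37 (0.987), for Hlf 0.18 ± 0.17 (0.781) and for Irf8 0.31 ± 0.25 (0.731). For these 4 genes a difference of the Flt3-ITD effect between the NHD13 and Runx1-heterozygous backgrounds was not detected at this precision.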

How the data were processed

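RNA was extracted from mouse hematopoietic progenitors with a Qiagen micro kit and converted with a Clontech SMARTer kit, per the labels' protocols. The deposited values are whole-number read counts per Ensembl gene. The submitters' processing notes name STAR 3.0.4, Subread and featureCounts 1.4.5. The genome build, annotation and strand setting are not given in the sources used here. Symbols and coordinates come from GENCODE M21 (GRCm38), which named 40340 of the 41388 P14 IDs, and promoters from RefSeq (GRCm38.p6), matched to 61 of the 77 genes past the test.

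All 24 P14 libraries in 6 groups were fitted together with edgeR 4.0.16 in R 4.3.3 (TMM, filterByExpr, robust quasi-likelihood F test, 1 mean per group, 18 residual degrees of freedom, biological coefficient of variation 0.164). The filter kept 14394 genes with 99.9% of the counts. P-values were adjusted by Benjamini-Hochberg over all tested genes, with a threshold of 0.05, and ± is the standard error of a log2 value with 4 libraries per group. P0 was fitted alone (12 libraries, 14359 genes, 9 residual degrees of freedom, coefficient 0.301) after 276 repeated rows were dropped. The P0 NHD13 samples were not analysed here, and 4 table columns matching no sample were not used. CPM use TMM-scaled library sizes. No 2 libraries of a group were copies (chi-square per degree of freedom 10.2 to 36.4 over 24 pairs).

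With 13.7 to 27.3 M counts per library, differences between libraries, more than counting, limit precision for most genes. The script was tested on simulated data, where 5.56% of 162 calls were on unchanged genes. The members and the 25 gene lists (385 entries) were chosen with earlier results of these data known. Genes were named by a rule: the targeted genes; among genes past the test whose mean log2 CPM is 2 or more, with 1 sign in all 16 fits without 1 library, the 8 highest and 8 lowest interactions and the 6 largest per class; and up to 4 members past the test per list. Predicted genes were passed over. All other named genes were chosen after their values were seen. Alternatives were DESeq2 1.42.0, other size factors, no filter, the 4 groups alone, terms for sex and replicate number, other thresholds and leaving out each library.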

Additional observations from a re-analysis of the deposited data

Results flagged for a closer look

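Of 112 sets of 4 libraries examined (28 genes in 4 groups), 7 had 1 library far from the other 3 by Dixon's criterion, which chance meets in about 1 of 20 groups. Prg2 did so in 3 groups: NHD13 library 1 at 4.29 CPM (others 2.43 to 2.65), Flt3-ITD library 4 at 37.2 CPM (others 0.657 to 1.28) and wild-type library 3 at 674 CPM (others 145 to 194). Flt3 was at 863 CPM in NHD13 library 1 (others 1055 to 1087). Hlf was at 216 CPM in Flt3-ITD library 2 (others 275 to 287). Ehd3 was at 3.63 CPM in wild-type library 4 (others 2.97 to 3.02). Hoxd13 was at 0.0431 CPM in wild-type library 3, which is 1 read, with the other wild-type libraries at 0.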

How the results depend on the processing

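All 77 interactions kept their sign under DESeq2 size factors (81 calls, 76 shared), no low-count filter (76, 67 shared), DESeq2 (165, 77 shared), the 4 groups alone (80, 59 shared) and a sex term (47, 40 shared). DESeq2 gave 76 positive and 89 negative calls, with 23 synergy, 51 saturation and 85 opposition genes. The sex term gave 15 positive calls, with 4 synergy, 15 saturation and 26 opposition genes. At an adjusted p under 0.01 there were 13 positive and 15 negative calls, with 1 synergy, 12 saturation and 15 opposition genes. Leaving out 1 library gave 16 to 58 positive and 22 to 45 negative calls, 1 to 9 synergy, 16 to 35 saturation and 22 to 58 opposition genes, and 436 to 584 for the Runx1 background difference. Of 448 values of named genes without 1 library, 99 no longer passed and 1 changed sign, Hoxd13 (2 of 4 groups near 0 reads), from −0.61 without wild-type library 3 to 1.31 without wild-type library 2. Of 168 under the other settings, 17 no longer passed. Most pairs of libraries with the same replicate number did not deviate together (r from −0.307 to 0.6 over 24 pairs, 5 over 0.1), and 4 of 16 libraries correlated best with their own number. The highest r were 0.6 for library 1 and 0.34 for library 4 of Flt3-ITD/NHD13 and wild type, 2 groups that enter the interaction with the same sign. With the replicate number as a block there were 65 calls (60 shared), of which 4 were synergy genes; Irf8 was lost (adjusted p = 0.0529). The causes of these moves were not tested. Genes below a mean log2 CPM of 2 carry the widest errors.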
